A study of Mus musculus with 3 samples.

Results

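CD8 T cells that held transcripts of *Gzmf*, the gene of the granule protease granzyme F, were compared with CD8 T cells of the same tumors that held none. A CD8 T cell was a cell with at least 2 unique molecular identifiers (UMIs) of *Cd3e*, at least 1 each of *Cd8a* and *Cd8b1*, 0 of *Cd4*, *Ncr1* and *Klrb1c*, and at most 3 UMIs of the proliferation genes *Mki67* and *Top2a* together. Of the 34781 cells of the series, 31943 passed the filters on genes (1000 to 6000) and mitochondrial UMIs (under 7.5%), and 7213 of those (22.6%) were CD8 T cells. Of these, 1122 held at least 3 UMIs of *Gzmf* and are called Gzmf-high, 4826 held 0 and are called Gzmf-zero, and 1265 with 1 or 2 UMIs were set aside. The comparison therefore covered 5948 cells, whose groups were chosen by their measured *Gzmf*.

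The cells were tumor-infiltrating leukocytes of MC38-Ova, an ovalbumin-bearing mouse colon adenocarcinoma line, of which 250000 cells had been injected under the skin of WT C57BL/6 Kaede mice. Their cells make Kaede, a protein whose green fluorescence becomes red under violet light. Tumors were photoconverted on day 13 and taken on day 15, 48 h later, so that Kaede-green (KG+) cells had entered after photoconversion and Kaede-red (KR+) cells had been in the tumor at the time. KG+ cells made 2 libraries, Kaede-green 1 and Kaede-green 2, and KR+ cells made 1, Kaede-red, and the labels give all 3 an isotype control treatment. The labels call the Kaede-green libraries biological replicates, but do not say how many mice each library held. Where 3 values are given below they are in the order Kaede-green 1, Kaede-green 2 and Kaede-red. Levels are in CPM, the UMIs of a gene in the summed cells of a group scaled to counts per 1000000 UMIs of those cells.

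Granzymes are serine proteases that cytotoxic T cells and NK cells store in granules and deliver into target cells through pores made by perforin, the product of *Prf1*. Granzyme B is the best known of them, and in the mouse its gene shares a cluster with the closely related *Gzmc*, *Gzmd*, *Gzme*, *Gzmf*, *Gzmg* and *Gzmn*, which are known from strongly activated cytotoxic cells. In tumors, CD8 T cells exposed to antigen for long carry inhibitory receptors such as PD-1 (*Pdcd1*) and TIM-3 (*Havcr2*) and lose genes of naive and memory cells such as *Tcf7*.

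The cluster lay on chromosome 14 of the mouse genome, from *Gzme* at 56117626 to the end of *Gzmb* at 56262260 (GRCm38), all genes on the minus strand. The stretch upstream of the start of *Gzmf* is printed beside its counterparts in *Gzmg*, *Gzmc*, *Gzmd* and *Gzme*, the genes of the cluster in which a counterpart was found and whose transcripts are followed below. Sequences are RefSeq's (GRCm38.p6), 69 bases on the minus strand, and in *Gzmf* they run from 97 to 29 bases before the start. Capitals mark the 8 bases at the place of TGACGTCA, the cyclic AMP response element, and the 6 bases at the place of TTTAAA in *Gzmf*.
*Gzmf*, chr14:56211436-56211504: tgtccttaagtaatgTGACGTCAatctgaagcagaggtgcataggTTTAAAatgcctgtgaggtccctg
*Gzmg*, chr14:56159603-56159671: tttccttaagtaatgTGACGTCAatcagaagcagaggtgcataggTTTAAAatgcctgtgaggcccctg
*Gzmc*, chr14:56234661-56234729: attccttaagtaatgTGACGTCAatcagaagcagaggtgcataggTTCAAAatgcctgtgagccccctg
*Gzmd*, chr14:56132601-56132669: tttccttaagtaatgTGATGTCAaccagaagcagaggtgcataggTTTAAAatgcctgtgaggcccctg
*Gzme*, chr14:56120634-56120702: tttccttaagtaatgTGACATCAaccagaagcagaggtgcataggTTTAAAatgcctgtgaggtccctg
The stretch of *Gzmg* was 95.7% identical to that of *Gzmf* (66 of 69 bases), that of *Gzme* 94.2%, that of *Gzmd* 92.8% and that of *Gzmc* 91.3%. Counted from 1 at the 5′ end of each capital block, with the base of *Gzmf* first, *Gzmd* carried C4T and *Gzme* G5A in the first block, and *Gzmc* carried T3C in the second. Counterparts were sought only by an exact match to a run of bases that *Gzmc*, *Gzmd*, *Gzme*, *Gzmf* and *Gzmg* share. No match stood upstream of *Gzmb* or *Gzmn*. Any mismatch in the run would hide a counterpart, so its absence there is not shown. Within 250 bases before the start, *Gzmn* held TTTAAA but not TGACGTCA, and *Gzmb* held neither. TGACGTCA reads the same on both strands and stood within 250 bases before the start of 508 of 32851 mouse promoters (1.55%), and TTTAAA, likewise its own reverse complement, of 3967 (12.1%). These matches are descriptions of letters and not of binding.

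The transcripts of the cluster are also alike, which bears on how reads are assigned. In the GENCODE transcripts, *Gzmf* was 88.7% identical to *Gzmg*, 87.6% to *Gzmd*, 87.6% to *Gzme*, 84.3% to *Gzmn*, 77.1% to *Gzmc* and 70.1% to *Gzmb*. The longest run that *Gzmf* shared with another of them was 72 bases (*Gzmg*), and the longest between any of them 101 bases (*Gzmd* and *Gzmg*), below the 150 bases of the reads as the labels give them. Reads could still be split wrongly between *Gzmc*, *Gzmd*, *Gzme*, *Gzmf* and *Gzmg*, so a rise of these relatives is uncertain and is not independent of the choice of cells by *Gzmf*.

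Gzmf-high cells were found in all 3 libraries, at 4.21% of CD8 T cells in Kaede-green 1 (82 cells, exact 95% interval 3.36 to 5.20%), 6.89% in Kaede-green 2 (165 cells, 5.91 to 7.98%) and 30.5% in Kaede-red (875 cells, 28.8 to 32.2%). The intervals, here and below, cover counting error only. Kaede-red stood further from Kaede-green 2 than the Kaede-green libraries stood from each other, but with 1 Kaede-red library no test between the colors could be made. Libraries also differed in depth, since the median CD8 T cell held 8295, 9222 and 11797 UMIs. With each cell thinned to 5000 UMIs and shallower cells left out, cells with at least 3 UMIs made up 4.14%, 5.63% and 25.9%.

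Cells with 1 or 2 UMIs of *Gzmf* made up 3.80%, 15.9% and 28.2% of CD8 T cells. B cells, which are not known to use the gene, held 1 or 2 UMIs in 2.86%, 11.8% and 25.0% of cells, at a lower median depth of 4051.5, 4967.5 and 5036 UMIs. The Kaede-red share rests on 2 of 8 B cells (exact 95% interval 3.19 to 65.1%). Exactly 2 UMIs stood in 0 of 210, 0 of 110 and 0 of 8 B cells and in 0.514%, 2.05% and 7.66% of CD8 T cells. The cells with 1 or 2 UMIs can thus hold background as well as expression and were set aside. At least 3 UMIs stood in 0 of 210 B cells of Kaede-green 1, which allows a share of up to 1.43%, in 1 of 110 of Kaede-green 2 and in 0 of 8 of Kaede-red, which allows up to 37.5%. NK cells, the other cytotoxic class in which *Gzmf* was counted, held at least 3 UMIs in 0.370% (7 cells), 1.06% (13 cells) and 10.7% (180 cells), with 6058.5, 7574 and 14351 UMIs in the median cell. CD4 and γδ T cells were not counted for *Gzmf*.

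**Figure D1:**
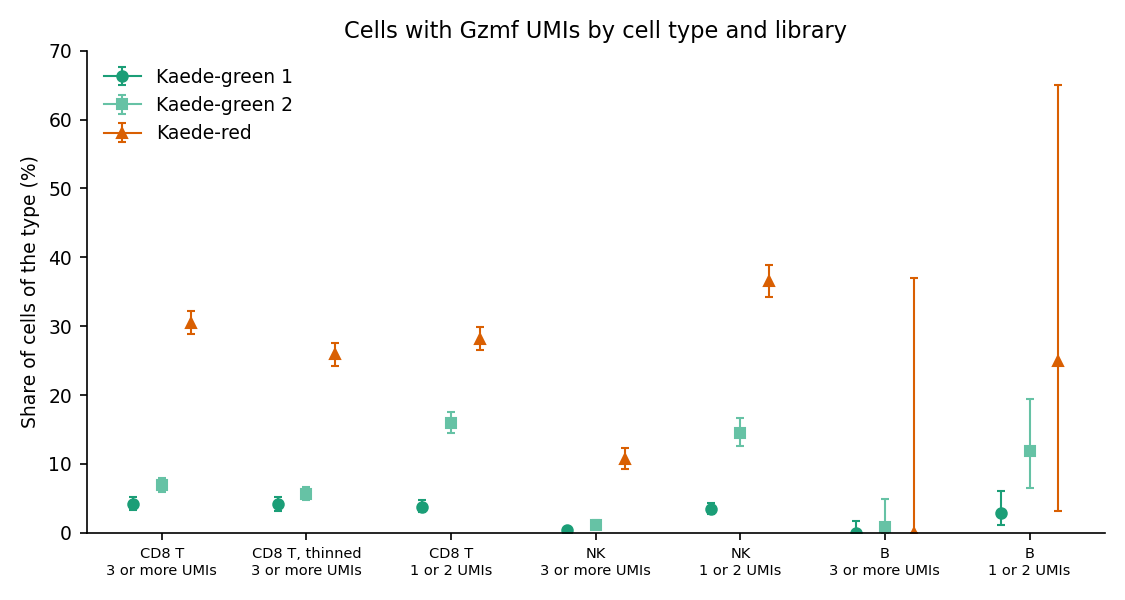
Share of cells of each type (vertical axis, percent) with 3 or more or with 1 or 2 UMIs of *Gzmf* in each library (marker shape and color), with exact 95% binomial intervals as bars. CD8 T cells with 3 or more UMIs made up 4.21% and 6.89% in the Kaede-green libraries and 30.5% in Kaede-red, whereas shares with 1 or 2 UMIs in B cells (2.86%, 11.8% and 25.0%, the last 2 of 8 cells) lay near those in CD8 T cells.

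Most Gzmf-high cells lay far from the threshold. Their median was 56.5, 27 and 65 UMIs of *Gzmf*, the highest cells held 1177, 949 and 2552, and 67, 119 and 661 of them held at least 10. Just outside the threshold 10, 49 and 220 cells held exactly 2 UMIs, and just inside it 3, 14 and 102 held exactly 3. Summed, Gzmf-high cells held 6227, 4506 and 9888 CPM of *Gzmf*, which the rule fixed.

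Gzmf-high cells were deeper than Gzmf-zero cells. The median cell held 19068, 15940 and 15986 UMIs against 8094, 8743 and 9827, and 3496.5, 3426 and 3298 genes against 2160, 2348 and 2536, so a cell with more UMIs was also more likely to reach 3 of *Gzmf*. The fits and the shares of cells with a given gene were therefore also computed with every cell of both groups thinned to 5000 UMIs. Thinning kept 80, 165 and 867 Gzmf-high and 1495, 1714 and 1071 Gzmf-zero cells. Of the 210, 110 and 8 B cells used as background it kept the deepest 43, 53 and 4. Levels by the number of *Gzmf* UMIs, marker sums, shares of cells with other lineages' markers and leading *Trbv* genes rest on all UMIs. Mitochondrial UMIs made up 2.75%, 2.44% and 2.24% in the median Gzmf-high cell and 3.42%, 2.99% and 2.47% in the median Gzmf-zero cell. Library totals ran from 87193225 to 175848894 UMIs, and 20 to 36 cell barcodes were common to any pair of libraries, of which 2 in each pair were CD8 T cells in both.

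The 7 markers of CD8 T cells summed to 8017 to 8968 CPM in Gzmf-high and 6898 to 8377 CPM in Gzmf-zero cells, but *Cd3e*, *Cd8a* and *Cd8b1* among them chose the cells and are no check of the label. *Trac*, a T cell receptor chain that the rule did not use, held 743, 863 and 780 CPM in Gzmf-high and 747, 729.7 and 820.1 CPM in Gzmf-zero cells. B cell markers were lower in Gzmf-high cells (10.2 to 13.4 against 32.5 to 84.4 CPM), as were tumor and stromal markers (1.72 to 3.51 against 5.41 to 5.89 CPM) and dendritic markers (411 to 522 against 580 to 644 CPM), the last mostly *Bst2*. NK markers (229 to 316 against 167 to 272 CPM, *Ncr1* and *Klrb1c* at 0 by the rule), γδ T cell markers (121 to 158 against 69.8 to 121 CPM), CD4 and regulatory T cell markers (44.6 to 56.3 against 28.0 to 47.6 CPM, *Cd4* at 0 by the rule) and monocyte and macrophage markers (139 to 374 against 86.6 to 257 CPM) overlapped or nearly so across libraries. Within every library, however, the NK, γδ T cell and CD4 and regulatory T cell sums were higher in Gzmf-high cells. The monocyte and macrophage sum was higher in Kaede-green 1 and Kaede-red and lower in Kaede-green 2. Mast cell and basophil markers held 1.41 to 3.13 against 0.0613 to 43.9 CPM. At least 1 UMI of a marker of another lineage stood in 6.1%, 16.4% and 6.17% of Gzmf-high and 5.47%, 14.2% and 3.62% of Gzmf-zero cells. The median doublet score, computed in the manner of Scrublet, was 0.053, 0.043 and 0.035 in Gzmf-high and 0.025, 0.024 and 0.027 in Gzmf-zero cells. Scores in the top 6% stood in 3.66%, 1.82% and 1.83% against 3.57%, 2.06% and 2.19% of cells. The part of these differences in the results was not tested beyond the fits without cells of either kind, which are among the alternatives given at the end.

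Levels of other genes were first read along the number of *Gzmf* UMIs in a cell, as a description. *Gzmc* in Kaede-red held 424 CPM in cells with 0, 473 with 1, 868 with 2, 1186 with 3 to 5, 1224 with 6 to 20 and 3526 with over 20 UMIs of *Gzmf*. *Tcf7*, which encodes TCF-1, the transcription factor of naive and stem-like T cells, held 35.3, 31.3, 25.6, 10.6, 1.01 and 1.83 CPM over the same steps. *Ccl5* in Kaede-green 1 held 5634, 4169, 2917, 1482, 1008 and 400 CPM, but its 2, 3 to 5 and 6 to 20 steps rest on 10, 9 and 10 cells. B cells of that library held 679 CPM of *Ccl5*. *Havcr2* in Kaede-green 2 held 63.0, 62.1 and 62.8 CPM at 0, 1 and 2 UMIs and 134, 141 and 122 CPM above. For *Tcf7* in Kaede-red, the step with 3 to 5 UMIs (159 cells) lay between the cells just outside the threshold and those far inside it.

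**Figure D2:**
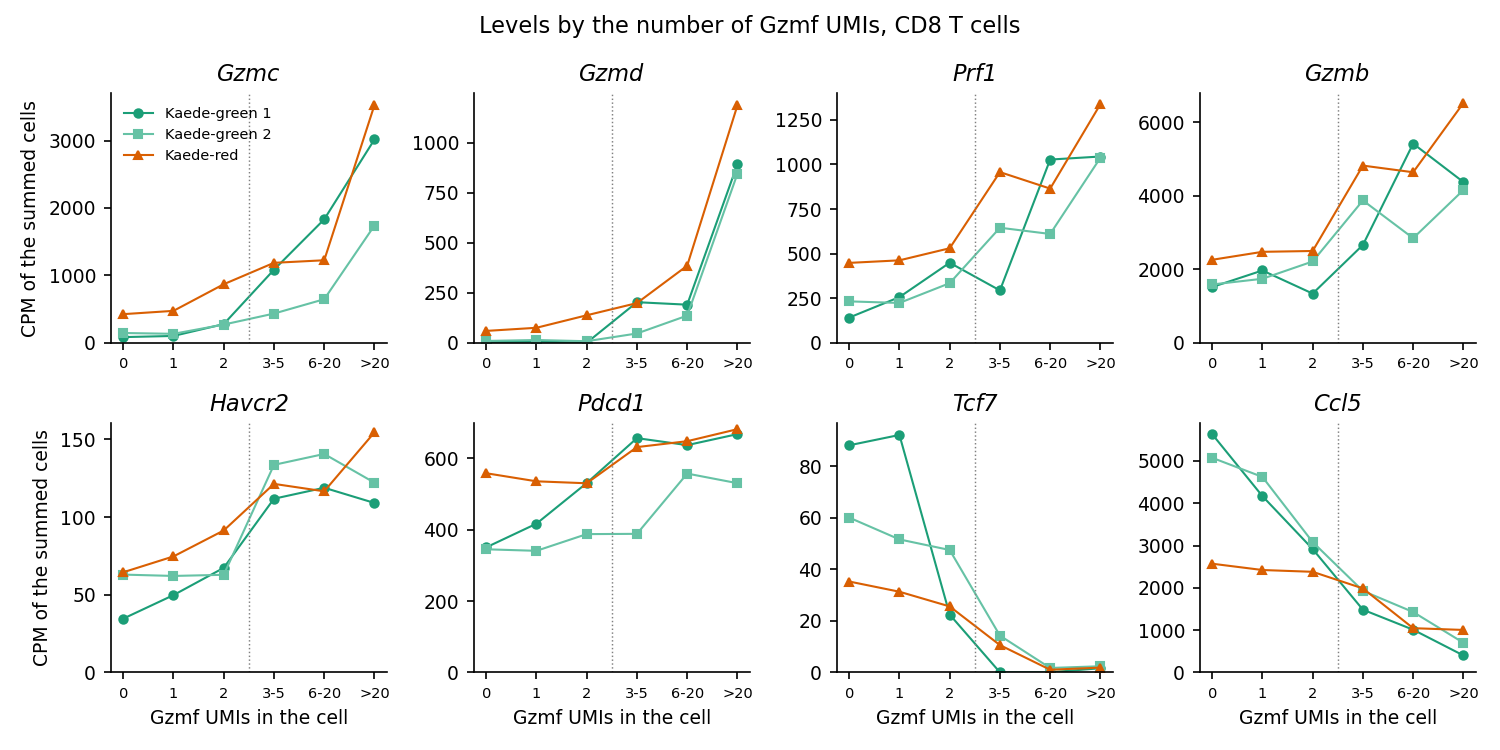
Levels of 8 genes in CD8 T cells (vertical axes, CPM of the summed cells, linear) by the number of *Gzmf* UMIs in the cell (horizontal axis), per library. The dotted line marks the threshold of 3 UMIs; *Tcf7* in Kaede-red goes from 25.6 CPM at 2 UMIs to 1.83 CPM above 20, and *Gzmc* from 868 to 3526 CPM.

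Gzmf-high and Gzmf-zero CD8 T cells differed in a large part of the transcriptome. Granzymes of the cluster, perforin, most serpins tested, most glycolytic genes and 3 of 4 genes of the metallothionein list were higher in Gzmf-high cells. Most naive and memory genes, immediate early genes and interferon-stimulated genes tested were lower. The 6 sums, 1 of each group in each library, entered a quasi-likelihood fit in edgeR with the library as a block. Of 11339 genes tested, 1133 (9.99%) were higher and 1201 (10.6%) lower in Gzmf-high cells at a Benjamini-Hochberg adjusted p under 0.05. Counts of members below are to be read against these shares, and the median log2 fold change over all genes tested was -0.01. Thinned cells gave 621 higher (6.25%) and 768 lower (7.73%) of 9936 genes, and 596 and 728 genes were called in the same direction in both fits, with 0 in opposite directions. Without Kaede-green 2 the counts were 332 and 532. Values of high and zero sums did not overlap for 38.5% of all genes. Fold changes are log2 of Gzmf-high over Gzmf-zero, given ± SE, with edgeR's adjusted p.

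The other granzymes of the cluster rose with *Gzmf*. All 5 members tested were higher, with a median log2 fold change of 5.41, and *Gzmn* was too low to be tested. *Gzmc* held 2688, 1255 and 2885 CPM in Gzmf-high and 83.6, 145 and 424 CPM in Gzmf-zero cells (log2 fold change 3.60 ± 0.37, adjusted p = 0.00072). *Gzmd* held 738, 540 and 938 against 2.88, 9.03 and 59.2 CPM (5.68 ± 0.59, adjusted p = 0.00074), and *Gzme* 649, 451 and 724 against 4.78, 11.4 and 37.1 CPM (5.41 ± 0.42, adjusted p = 0.00022). *Gzmg* held 55.6, 119 and 138 against 0.307, 1.19 and 2.52 CPM (6.36 ± 0.22, adjusted p = 3.7e-06), but only 2.44%, 9.70% and 15.5% of Gzmf-high cells held a UMI of it and 1 cell held 24.5% of all its UMIs. For each of these genes every Gzmf-high sum lay above every Gzmf-zero sum, and the zero sums were highest in Kaede-red. Background matters for the zero sums, since B cells held 28.9, 402 and 313 CPM of *Gzmc* and 0.997, 9.20 and 46.4 CPM of *Gzmd*.

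Both the share of cells with *Gzmc* and its level differed between the groups. With cells thinned to 5000 UMIs, 86.25%, 66.1% and 81.1% of Gzmf-high cells held a UMI of *Gzmc*, against 9.50%, 32.3% and 56.6% of Gzmf-zero cells and 16.3%, 18.9% and 75.0% of B cells, the last 3 of 4 cells. Thinned shares for *Gzmd* were 36.25%, 25.5% and 41.9% against 0.870%, 3.62% and 12.5%, with 2.33%, 3.77% and 25.0% in B cells. These B cell shares rest on 1 of 43, 2 of 53 and 1 of 4 cells, and with all UMIs the *Gzmd* shares were 1.34%, 5.79% and 23.2% of Gzmf-zero and 0.476%, 6.36% and 37.5% of B cells. The order of Gzmf-zero and B cells was thus not the same in every library, and the *Gzmd* of Gzmf-zero cells could not be told apart from background.

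*Gzmb*, the less similar member of the cluster, held 4361, 3831 and 6034 CPM in Gzmf-high and 1517, 1587 and 2259 CPM in Gzmf-zero cells (1.40 ± 0.07, adjusted p = 4.1e-05). The groups did not overlap, and B cells held 664, 389 and 279 CPM. *Prf1*, perforin, held 975, 872 and 1221 against 141, 232 and 448 CPM (2.04 ± 0.20, adjusted p = 0.0006), and its thinned share of cells was 85.0%, 80.0% and 87.1% against 29.8%, 42.4% and 53.2%. Granule genes outside the cluster went both ways: of 16 tested, 5 were higher and 3 lower, with a median of 0.04. *Ctsd*, the lysosomal protease cathepsin D, rose by 1.04 ± 0.10 (adjusted p = 0.0006).

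Granzymes encoded elsewhere were lower or did not pass the test. *Gzmm* held 1, 1 and 4 UMIs in the Gzmf-high sums and 17.9, 14.9 and 5.29 CPM in the Gzmf-zero sums (-4.61 ± 0.32, adjusted p = 0.00013). *Gzmk*, a granzyme of early effector and memory CD8 T cells, held 38.1, 54.8 and 34.5 against 120, 112 and 83.2 CPM (-1.28 ± 0.12, adjusted p = 0.00054), with every high sum below every zero sum. *Gzma* held 114, 712 and 232 against 734, 926 and 235 CPM, and its log2 fold change of -0.91 ± 0.41 did not pass the test (adjusted p = 0.15, and 0.03 after thinning). B cells, which were shallower, held 866, 784 and 186 CPM of *Gzma*. With all UMIs, 58.3%, 82.3% and 37.3% of Gzmf-zero cells held it, against 34.8%, 61.8% and 25.0% of B cells. Thinned, the shares were 45.3%, 65.9% and 23.7% against 53.5%, 67.9% and 25.0%. The order of Gzmf-zero and B cells thus changed with depth, and how far *Gzma* in these CD8 T cells exceeds background is uncertain.

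Serpins, which include the inhibitors that protect a cytotoxic cell from its own granzymes, were mostly higher. Of 8 tested, 6 rose and 1 fell, with a median of 0.75. *Serpinb9b*, a relative of the granzyme B inhibitor *Serpinb9*, held 139, 137 and 124 CPM against 3.68, 11 and 34.6 CPM (3.32 ± 0.47, adjusted p = 0.0027). Its Gzmf-high sums were nearly level across the libraries while its zero sums were spread. *Serpinb9* itself held 356, 522 and 500 against 257, 330 and 359 CPM (0.54 ± 0.08, adjusted p = 0.0028), with 1 high sum below the highest zero sum. *Serpine2*, an inhibitor of extracellular serine proteases, held 98.8, 111 and 116 against 13.2, 20.2 and 56.3 CPM (2.04 ± 0.28, adjusted p = 0.0025). *Serpinb1a* fell by 1.72 on the log2 scale (SE 0.25, adjusted p = 0.0028), from 10.7, 8.33 and 15.1 to 5.00, 1.05 and 4.64 CPM, but its change was 0.08 when cells were grouped as at least 1 UMI of *Gzmf* against 0 on thinned counts, which alters both the depth and the threshold.

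**Figure D3:**
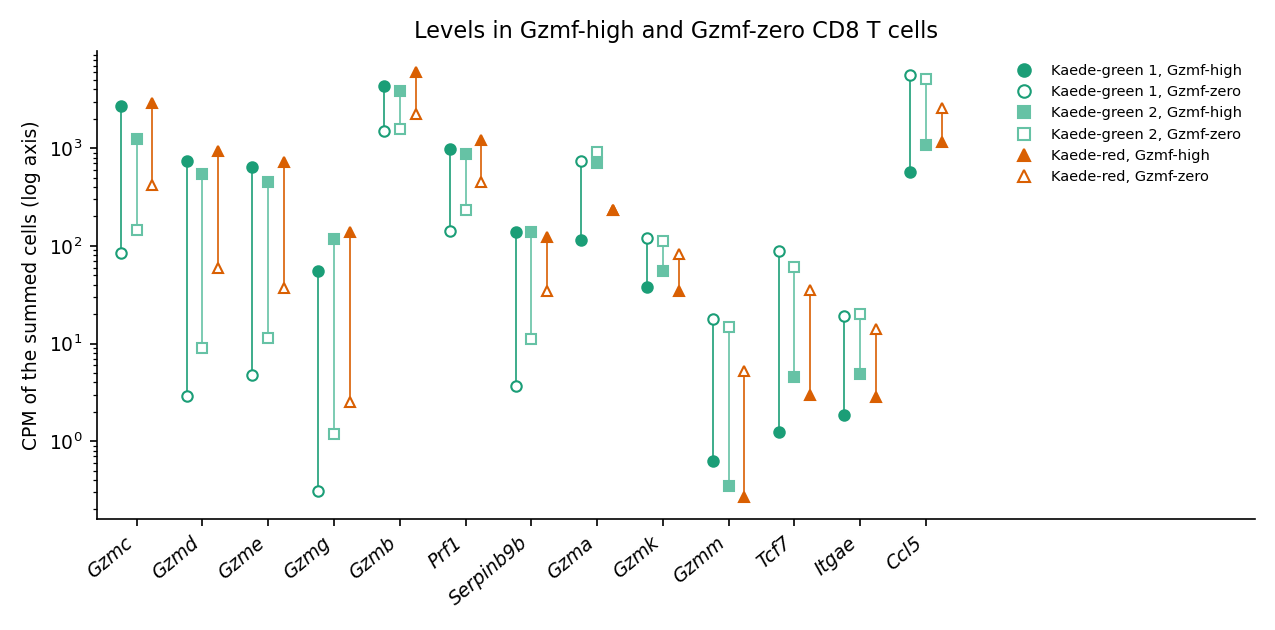
Levels of 13 genes in Gzmf-high (filled) and Gzmf-zero (open) CD8 T cells of each library (vertical axis, CPM on a log axis), with a line joining the sums of a library. *Gzmd* goes from 2.88, 9.03 and 59.2 CPM to 738, 540 and 938 CPM, while *Tcf7* goes down from 88.2, 60.1 and 35.3 to 1.25, 4.57 and 2.98 CPM.

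Inhibitory receptors were higher for 9 and lower for 2 of the 19 tested, with a median of 0.35. *Havcr2* (TIM-3) held 111, 128 and 145 CPM in Gzmf-high and 34.6, 63.0 and 64.5 CPM in Gzmf-zero cells (1.27 ± 0.13, adjusted p = 0.0007), without overlap. *Cd244a* (2B4) held 49.4, 32.7 and 49.1 against 5.15, 7.46 and 13.3 CPM (2.33 ± 0.23, adjusted p = 0.00057), also without overlap. *Pdcd1* (PD-1) held 663, 508 and 670 against 351, 345 and 559 CPM (0.58 ± 0.11, adjusted p = 0.0088, and 0.0681 with no library block), so the lowest high sum lay below the highest zero sum. *Entpd1* (CD39), an ectonucleotidase, rose by 1.20 ± 0.18 (adjusted p = 0.0029), although the gene overlaps another on its strand and its reads are uncertain. Values of *Lag3* were 430, 424 and 587 against 315, 372 and 589 CPM (0.21 ± 0.09, adjusted p = 0.15). *Btla* and *Lilr4b* were the members that fell, by 2.32 ± 0.37 (adjusted p = 0.0039) and 1.42 ± 0.27 (adjusted p = 0.0085). Cells with at least 1 UMI of both *Pdcd1* and *Havcr2* made up 68.3%, 65.5% and 69.3% of Gzmf-high and 14.7%, 25.5% and 28.2% of Gzmf-zero cells, or 37.5%, 28.5% and 41.1% against 9.63%, 16.5% and 17.6% after thinning.

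Transcription factors of exhaustion and effector function moved in both directions, 4 up and 5 down of 19, with a median of -0.06. *Irf8* held 702, 859 and 899 against 216, 350 and 467 CPM (1.31 ± 0.12, adjusted p = 0.00053). *Maf* held 3.75, 20 and 13.7 against 53.0, 44.2 and 49.2 CPM (-1.84 ± 0.27, adjusted p = 0.0029), and *Eomes*, a T-box factor of memory and exhausted cells, 3.13, 13.7 and 6.03 against 31.9, 25.3 and 16.8 CPM (-1.51 ± 0.27, adjusted p = 0.0065). High and zero sums of these genes did not overlap. *Nr4a1*, a gene induced by the T cell receptor, fell by 1.07 ± 0.11 (adjusted p = 0.00074). *Tox*, the factor most tied to exhaustion, held 44.4, 48.8 and 40.6 against 53.2, 43.5 and 67.5 CPM and did not pass the test (-0.31 ± 0.15, adjusted p = 0.19).

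Naive and memory genes were the group with the lowest median, -2.19, with 15 of 17 members lower and 0 higher. *Tcf7* held 1.25, 4.57 and 2.98 CPM in Gzmf-high cells (2, 13 and 45 UMIs) and 88.2, 60.1 and 35.3 CPM in Gzmf-zero cells (-3.88 ± 0.25, adjusted p = 0.00011). Thinned, 0 of 80 cells, which allows up to 3.75%, then 1.82% and 1.96% of Gzmf-high cells held a UMI of *Tcf7*, against 28.2%, 20.2% and 13.1% of Gzmf-zero cells. B cells held it in 6.98%, 11.3% and 0% (0 of 4 cells), so the share in Gzmf-high cells is at background in the Kaede-green libraries. *S1pr1*, the receptor that guides T cells out of tissue into the circulation, held 1.25, 3.16 and 1.92 against 108, 91.8 and 26.7 CPM (-4.45 ± 0.27, adjusted p = 0.00011). *Klf3*, a zinc-finger repressor, held 1.88, 3.51 and 2.05 against 73.5, 53.8 and 25.2 CPM (-3.93 ± 0.22, adjusted p = 5.8e-05). For all 3 genes the zero sums were highest in Kaede-green 1 and lowest in Kaede-red, and no high sum reached a zero sum. *Klf2*, a transcription factor that drives *S1pr1*, fell by 2.36 ± 0.18 (adjusted p = 0.00019). *Il7r* held 219, 267 and 270 against 249, 254 and 291 CPM (-0.07 ± 0.08, adjusted p = 0.6).

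Genes tied to tissue residency did not move as 1 group: 6 were higher and 9 lower of 19, with a median of -0.26. *Itgae*, the CD103 integrin chain of resident T cells, held 1.88, 4.92 and 2.85 CPM in Gzmf-high cells (3, 14 and 43 UMIs) against 19.1, 20.2 and 14.1 CPM (-2.33 ± 0.21, adjusted p = 0.00043). *Itga1*, the CD49a chain, held 46.9, 60.4 and 57.1 against 23, 38.5 and 36.7 CPM (0.75 ± 0.12, adjusted p = 0.0038), with reads that another gene on its strand overlaps. These integrins thus went in opposite directions, each without overlap of the groups. The chemokine receptors *Cxcr3* and *Cxcr4* fell from 68.9, 66.3 and 39.9 to 5.63, 3.16 and 6.03 CPM (-3.21 ± 0.25, adjusted p = 0.0002) and from 160, 125 and 61.3 to 25.6, 23.2 and 10.3 CPM (-2.54 ± 0.11, adjusted p = 1.4e-05). *Cxcr6*, a receptor of T cells in tumors, held 433, 432 and 470 against 235, 321 and 360 CPM (0.56 ± 0.11, adjusted p = 0.0082).

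Secreted cytokines and chemokines were higher for 3 and lower for 7 of 26 members, with a median of -0.25. *Ccl5*, a chemokine that draws T cells, held 576, 1092 and 1150 CPM in Gzmf-high and 5634, 5075 and 2570 CPM in Gzmf-zero cells (-2.21 ± 0.32, adjusted p = 0.0029). The drop was largest in Kaede-green 1, and no high sum reached a zero sum. B cells held 679, 900 and 209 CPM of *Ccl5*. In CPM the Gzmf-high sums of the Kaede-green libraries thus lay near those of B cells, but B cells were shallower. The 82 and 165 Gzmf-high cells held 922 and 3108 UMIs of *Ccl5*. The 210 and 110 B cells held 681 and 685, fewer per cell. The part of background in these sums, and so the size of the drop, is uncertain. *Xcl1*, which attracts cross-presenting dendritic cells, held 229, 124 and 81.5 against 347, 549 and 263 CPM (-1.49 ± 0.24, adjusted p = 0.0041). *Tnfsf8* (CD30 ligand) held 0.625, 2.81 and 1.26 against 20.9, 12.1 and 13.6 CPM (-3.22 ± 0.30, adjusted p = 0.00054). *Spp1*, osteopontin, was the largest rise, from 10.9, 59.2 and 142 to 98.8, 274 and 305 CPM (2.04 ± 0.29, adjusted p = 0.0027, and 0.113 with no library block). Its groups overlapped across libraries, although each high sum lay above the zero sum of its own library, and B cells held 21.9, 10.5 and 104 CPM. *Ifng* held 260, 255 and 263 against 218, 272 and 189 CPM (0.22 ± 0.12, adjusted p = 0.24).

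Receptors for cytokines were higher for 3 and lower for 6 of 19 (median -0.37). *Il1r2*, the decoy receptor for IL-1, held 111, 62.9 and 127 against 15.7, 12.7 and 44.1 CPM (2.16 ± 0.20, adjusted p = 0.00054), without overlap. *Il6ra* fell to 0, 2 and 4 UMIs, that is 0, 0.703 and 0.265 CPM, from 14.5, 6.44 and 3.23 CPM (-3.87 ± 0.45, adjusted p = 0.0011). *Il2rb*, the shared receptor chain for IL-2 and IL-15, rose by 0.55 ± 0.08 (adjusted p = 0.0028). Response genes of that cytokine family did not rise with it: 0 of 13 were higher and 6 lower (median -0.11), led by *Socs3* (-2.31 ± 0.23, adjusted p = 0.0006) and *Pim1* (-1.50 ± 0.16, adjusted p = 0.00074).

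Signaling genes were lower where they passed the test, with a few exceptions. TNF receptor and costimulatory genes were higher for 1, *Tnfrsf9* (4-1BB, 0.72 ± 0.11, adjusted p = 0.0033), and lower for 6 of 15 (median -0.18), led by *Tnfrsf25* (0, 2 and 3 UMIs in Gzmf-high cells) and *Cd7* (-2.05 ± 0.20, adjusted p = 0.0006). *Cd27* and *Cd28*, the classical costimulatory receptors, fell by 0.56 ± 0.08 and 0.70 ± 0.10 (adjusted p = 0.0033 for each). Genes of the T cell receptor complex were higher for 1, *Cd3g* (0.53 ± 0.08, adjusted p = 0.0035), and lower for 3 of 18 (median -0.19). Immediate early genes, which follow recent stimulation, were lower for 13 of 18 and higher for 0 (median -0.62). Among them *Zfp36l2* held 118, 161 and 136 against 427, 394 and 278 CPM (-1.37 ± 0.15, adjusted p = 0.00082), and *Nfkbia*, an inhibitor of NF-κB, 291, 292 and 273 against 698, 605 and 536 CPM (-1.09 ± 0.09, adjusted p = 0.00027). Neither gene overlapped between the groups.

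Glycolytic and hypoxia-induced genes were higher for 23 of 28 members and lower for 0, with a median of 0.82. *Bnip3*, a mitophagy gene that hypoxia induces, held 135, 59.4 and 110 CPM in Gzmf-high and 18.8, 20.1 and 43.3 CPM in Gzmf-zero cells (1.87 ± 0.24, adjusted p = 0.0019). The glycolytic enzyme *Pgk1* held 1038, 744 and 968 against 298, 299 and 561 CPM (1.30 ± 0.15, adjusted p = 0.0012), and *Tpi1* 735, 432 and 644 against 197, 191 and 380 CPM (1.27 ± 0.17, adjusted p = 0.0024). *Ndrg1* rose by 1.54 ± 0.25 (adjusted p = 0.0046). The high sums of *Bnip3*, *Pgk1* and *Tpi1* did not overlap with the zero sums, and the high sums were lowest in Kaede-green 2. Respiratory chain genes were higher for 7 and lower for 1 of 18, with a smaller median of 0.22, and *Ndufa4* fell by 0.54 ± 0.08 (adjusted p = 0.0031). *Myc*, amino acid transport and translation genes went both ways (3 up, 3 down of 16, median -0.05), and the transporter *Slc38a2* fell by 0.95 ± 0.14 (adjusted p = 0.0033).

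Metallothioneins, which bind zinc and copper, rose for 3 of 4 list members (median 1.69). *Mt1* held 711, 692 and 890 against 108, 220 and 334 CPM (1.91 ± 0.21, adjusted p = 0.00091), and *Mt2* 147, 152 and 156 against 18.9, 41.4 and 60.5 CPM (2.00 ± 0.24, adjusted p = 0.0012). Neither overlapped between the groups. The zinc exporter *Slc30a1*, which the same metal sensor controls, held 13.8, 19.0 and 19.5 against 13.1, 19.2 and 17.0 CPM (0.11 ± 0.14, adjusted p = 0.62).

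Interferon-stimulated genes were lower for 18 of 21 members and higher for 0 (median -0.73). *Oasl2* held 8.13, 8.79 and 5.04 against 53.8, 40.1 and 26.4 CPM (-2.39 ± 0.15, adjusted p = 0.00011), and *Gbp2* 23.1, 33.4 and 26.6 against 130, 117 and 63.0 CPM (-1.72 ± 0.20, adjusted p = 0.0011), both without overlap. *Irf7*, a factor of the interferon response, fell by 0.92 ± 0.10 (adjusted p = 0.001). The interferon-induced transmembrane genes went the other way, with 3 of 4 higher, led by *Ifitm2* (1023, 413 and 772 against 230, 236 and 401 CPM, 1.30 ± 0.22, adjusted p = 0.0055), and *Ifitm10* lower. Of these, *Ifitm1* and *Ifitm3* were not called by DESeq2 (adjusted p = 0.218 and 0.15). MHC class I and peptide loading genes were lower for 3 and higher for 0 of 12 (median -0.10), and the largest of these changes, in *Nlrc5*, was 0.56 downward (SE 0.12, adjusted p = 0.014, and 0.0551 after thinning).

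BCL2 and death genes were higher for 2 and lower for 5 of 16 (median -0.27), with *Fas*, the death receptor, at 9.38, 8.43 and 5.23 against 32.3, 30.6 and 15.5 CPM (-1.69 ± 0.15, adjusted p = 0.00048). NK-type receptors were higher for 4 and lower for 0 of 17 (median -0.22). The largest of these rises was that of *Fcer1g*, a signaling adaptor, at 121, 94.2 and 119 against 55.6, 97.7 and 59.3 CPM (0.69 ± 0.21, adjusted p = 0.046), with Kaede-green 2 lower in the high cells and a loss of the call without Kaede-green 1 (adjusted p = 0.12). Heat-shock genes were higher for 0 and lower for 2 of 11 (median -0.16). Cell cycle genes that were not used to choose cells were higher for 12 and lower for 2 of 29 (median 0.36), with *Ccnb2* at 26.9, 49.2 and 27.1 against 5.76, 7.14 and 13.9 CPM (1.89 ± 0.30, adjusted p = 0.0037) and *Ccnd2* at 186, 272 and 227 against 448, 441 and 398 CPM (-0.91 ± 0.11, adjusted p = 0.0015). The limit on *Mki67* and *Top2a* was set on all UMIs, and Gzmf-high cells were deeper. It was thus stricter for them, and genes that follow *Mki67* and *Top2a* are not independent of the choice of cells.

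**Figure D4:**
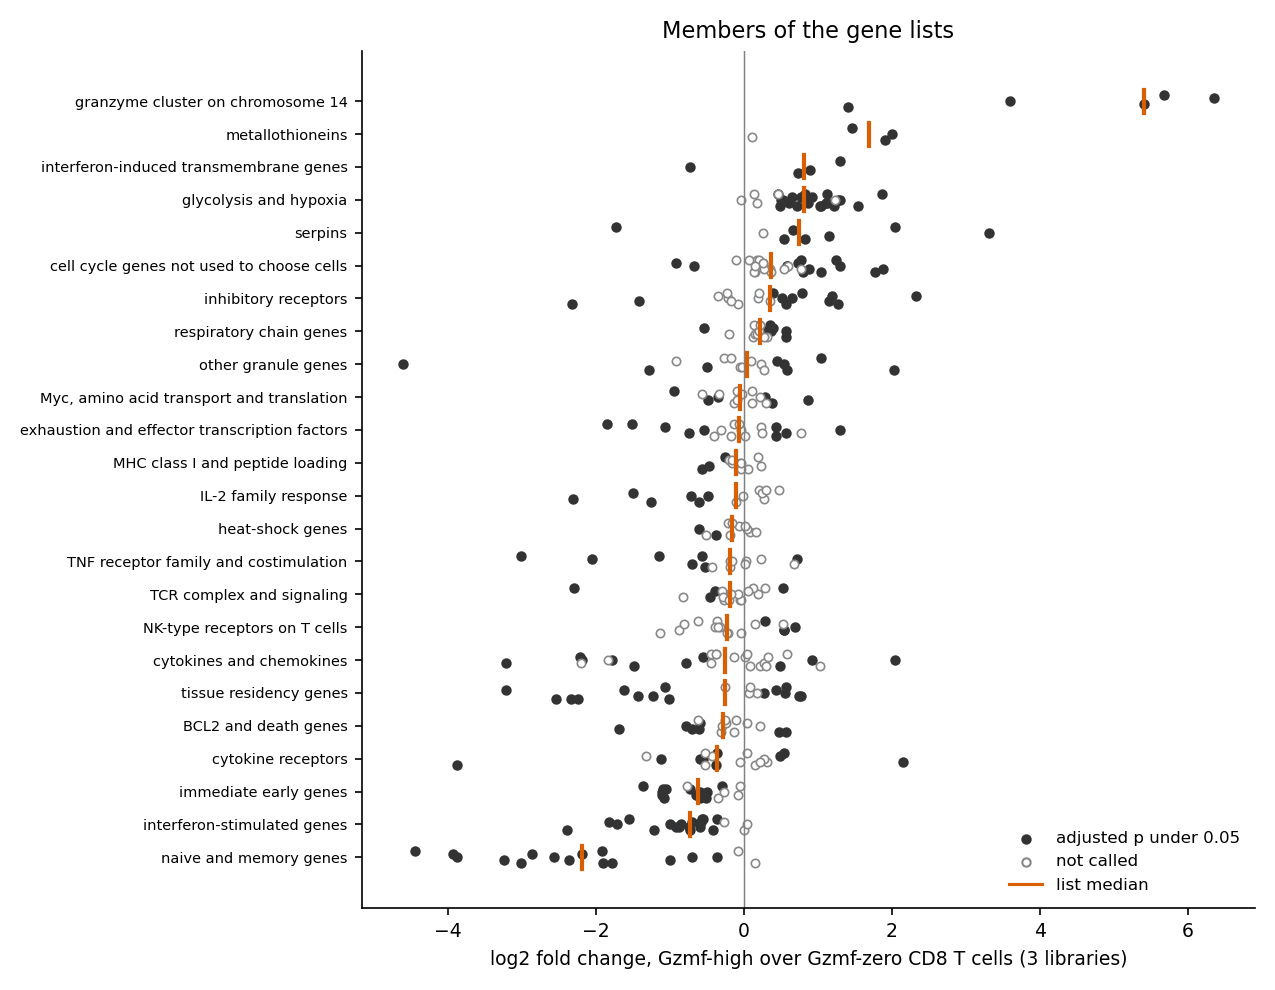
Log2 fold change of each tested member (points) of the gene lists between Gzmf-high and Gzmf-zero CD8 T cells (horizontal axis), ordered by list median (orange bar), with filled points for an adjusted p under 0.05. The granzyme cluster (median 5.41) and metallothioneins (1.69) stand at one end and naive and memory genes (-2.19) at the other.

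By size alone, the 10 largest rises among genes of at least 20 CPM that held in every library and after thinning, and of whose UMIs no cell held over 20%, were *Gzmd*, *Gzme*, *Gzmc*, *Serpinb9b*, *Cd244a*, *Il1r2*, *Ly6g5b*, *AA467197*, *Serpine2* and *Spp1*. *Gzmg*, whose rise was larger than that of *Gzmd*, was left out by the last limit. Of the 10, *Ly6g5b* held 34.4, 23.9 and 51.2 against 5.82, 5.30 and 14.4 CPM (2.12 ± 0.16, adjusted p = 0.00019), and *AA467197*, known as *Nmes1*, 307, 356 and 406 against 59.7, 73.0 and 142 CPM (2.05 ± 0.15, adjusted p = 0.00015). Neither was on a list, and neither overlapped between the groups. The 10 largest falls included *S1pr1*, *Klf3*, *Tcf7*, *Cxcr3*, *1700025G04Rik*, *Gm26740*, *Cxcr4*, *Oasl2* and *Klf2*. *1700025G04Rik* and the noncoding *Gm26740* fell by 2.85 ± 0.18 and 2.77 ± 0.24 (adjusted p = 0.00011 and 0.00043).

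T cell receptor variable genes are shared by the cells of a clone, but also by unrelated clones, so their shares are not clone sizes. Of 11 *Trav* and 16 *Trbv* genes tested, 0 were called by edgeR or DESeq2, with unadjusted p under 0.05 for 0 and 2 genes by edgeR and 1 and 2 by DESeq2. These fits seek a shift shared by the libraries, so a rise in 1 library, as of *Trbv29* below, could hardly be called. Log2 fold changes ran from -1.53 to 0.89 for *Trav* and from -1.31 to 0.70 for *Trbv*. A single leading *Trbv* gene could be assigned in 36.6%, 33.9% and 34.1% of Gzmf-high and 24.5%, 29.9% and 26.3% of Gzmf-zero cells, so most cells carry no such information in these 3' libraries. Among cells with one, *Trbv29* led in 24 of 56 Gzmf-high cells of Kaede-green 2 (42.9%, exact 95% interval 29.7 to 56.8%) against 47 of 552 Gzmf-zero cells (8.51%, 6.32 to 11.2%). In Kaede-green 1 it led in 1 of 30 (3.33%) against 15 of 439 (3.42%) and in Kaede-red in 6 of 298 (2.01%) against 21 of 312 (6.73%), so the excess stood in 1 of the 3 libraries. *Trbv16* led in 6 of 30 Gzmf-high cells of Kaede-green 1 (7.71 to 38.6%) against 22 of 439 Gzmf-zero cells (5.01%, 3.17 to 7.49%). It led in 12.5% against 5.43% in Kaede-green 2 and in 8.72% against 5.45% in Kaede-red. *Trbv12-2* and *Trbv3*, the 2 genes counted above for edgeR, were lower in Gzmf-high cells of every library (log2 fold change -0.74 and -1.31). *Trbv12-2* led in 13.3%, 1.79% and 16.1% of Gzmf-high against 21.6%, 11.4% and 21.2% of Gzmf-zero cells. *Trbv3* led in 0 of 30, 0 of 56 and 7 of 298 Gzmf-high cells against 7.06%, 3.99% and 5.77%. For both genes the exact 95% intervals of the groups overlapped in each library.

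The split was repeated among cells that held at least 1 UMI of both *Pdcd1* and *Havcr2*, the receptors used to mark exhausted-like cells. These were 56, 108 and 606 Gzmf-high and 264, 472 and 335 Gzmf-zero cells. All of them were also part of the comparison above, so the fits are set side by side and not tested against each other. The limit was set on all UMIs, also for the thinned fit, and did not equalize depth or receptor level. The Gzmf-high sums held 1084688, 1933812 and 11298950 UMIs and the Gzmf-zero sums 3009795, 5337885 and 4289151, so Gzmf-high cells were deeper here too. Receptor levels were not compared between the groups. Granzymes of the cluster and *Prf1* were higher and most immediate early genes lower, while interferon-stimulated genes mostly were not called. Of 9420 genes, 287 (3.05%) were higher and 432 (4.59%) lower, 7.63% in all. After thinning, 147 (1.88%) and 227 (2.91%) of 7802 were called, without Kaede-green 2 the counts were 84 and 164, and with no library block 67 and 183.

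Within these cells the relatives of *Gzmf* in the cluster were higher, 5 of 5 (median 4.49). *Gzmc* held 3406, 1365 and 3218 CPM in Gzmf-high and 230, 260 and 817 CPM in Gzmf-zero cells (2.74 ± 0.27, adjusted p = 0.00025), and *Gzmd* 992, 709 and 1094 against 6.98, 17.0 and 121 CPM (4.76 ± 0.47, adjusted p = 0.00025). *Prf1* rose by 1.16 (adjusted p = 0.0012, and 0.0645 with no library block) and *Gzmb* by 1.10 (adjusted p = 3e-05). *Serpinb9b* held 135, 162 and 130 against 11, 15.9 and 56.0 CPM (2.43 ± 0.34, adjusted p = 0.0019) and *Cd244a* 52.5, 37.7 and 54.3 against 14.3, 14.1 and 20.3 CPM (1.55 ± 0.14, adjusted p = 0.00017). No high sum of *Gzmc*, *Gzmd*, *Serpinb9b* or *Cd244a* lay below a zero sum. Of all genes tested there, 22.7% had groups that did not overlap, in either direction.

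Of 23 cytokines and chemokines tested among the *Pdcd1*-positive *Havcr2*-positive cells, 10 were lower, 1 was higher and 12 were not called. *Ccl1*, the ligand of CCR8, held 25.8, 20.7 and 126 against 351, 580 and 255 CPM (-2.67 ± 0.50, adjusted p = 0.0089), *Xcl1* 246, 61.5 and 66.7 against 684, 758 and 176 CPM (-2.05 ± 0.32, adjusted p = 0.0033, and 0.0715 with no library block), and *Ccl5* 718, 1262 and 1282 against 5962, 4818 and 2666 CPM (-1.97 ± 0.26, adjusted p = 0.0013). The *Xcl1* groups overlapped between libraries, with the high sum of Kaede-green 1 above the zero sum of Kaede-red. For *Ccl5*, B cells held 679, 900 and 209 CPM. *Ccl4* was lower by 1.54 on the log2 scale (adjusted p = 9e-05) and *Ifng* by 0.73 (adjusted p = 0.017, but 0.244 by DESeq2, 0.101 without Kaede-green 2 and 0.0716 with no library block). *Ccr7*, the lymph node homing receptor, held 44.3, 32.6 and 45 against 274, 262 and 163 CPM (-2.36 ± 0.18, adjusted p = 4.8e-05), and *Cnih2*, which is best known as a partner of glutamate receptors, 1.84, 3.62 and 3.36 against 42.2, 51.5 and 26.3 CPM (-3.30 ± 0.23, adjusted p = 3e-05).

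Inhibitory receptors in these cells were higher for 2 and lower for 3 of 16, with *Lag3* lower by 0.56 (adjusted p = 0.0018, and 0.0983 with no library block). Transcription factors were higher for 2 and lower for 8 of 18, and *Tox* was not called (-0.26, adjusted p = 0.2). Naive and memory genes were lower for 8 of 16 (median -0.99), with *Tcf7* lower by 1.65 (adjusted p = 0.013, but 0.0978 without Kaede-green 2). Residency genes were higher for 2 and lower for 8 of 19, with *Itgae* lower by 2.62 (adjusted p = 0.00025). Immediate early genes were lower for 14 of 18 (median -0.75), and glycolysis and hypoxia genes higher for 16 and lower for 1 of 28 (median 0.54). The metallothionein list was higher for 3 of 4 members. Of 21 interferon-stimulated genes 1, *Gbp2*, was lower (-0.81, adjusted p = 0.014), and the list median was -0.09 beside a median of -0.001 over all genes tested.

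NK cells were also split by *Gzmf*, and the difference between the split in CD8 T cells and the split in NK cells was tested in a fit of 12 sums. NK cells held at least 1 UMI of *Ncr1* and of *Klrb1c* and 0 of *Cd3e*, *Cd8a*, *Cd8b1* and *Cd4*. The Gzmf-high NK sums rest on 7, 13 and 180 cells, and the median Gzmf-high NK cell held 22714, 18219 and 25653.5 UMIs against 5997.5, 7516.5 and 12616 in Gzmf-zero NK cells. Of the Gzmf-high NK cells 4, 8 and 88 held at least 10 UMIs of *Gzmf* and 1, 2 and 48 exactly 3. In Kaede-red, 661 of the 875 Gzmf-high CD8 T cells held at least 10 and 102 exactly 3. More NK cells thus lay near the threshold there, and the part of this in the differences was not tested. These Gzmf-high NK sums held 173128, 234499 and 4824572 UMIs, and a count of 0 in them allows up to 17.3, 12.8 and 0.622 CPM. Values of about that size in the Kaede-green sums thus rest on few UMIs. The CD8 T sums are those used above, so the 2 sets of values share their samples. The difference passed the test for 57 genes with a higher (0.49%) and 42 with a lower (0.361%) value in CD8 T cells, 0.851% of the 11633 tested in all. Thinning gave 69 (0.673%) and 26 (0.254%) of 10252, and the fit with no library block 2 and 7. The median difference over all genes was 0.05, and 0.126 after thinning.

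*Gzmb* and *Prf1* differed with *Gzmf* in CD8 T cells and not to the same degree in NK cells. In NK cells *Gzmb* held 5349, 3697 and 4667 CPM with high and 5222, 4416 and 4472 CPM with zero *Gzmf*, and the difference of the splits was 1.42 ± 0.14 (adjusted p = 2.3e-05). *Prf1* held 838, 699 and 1061 against 804, 734 and 772 CPM in NK cells, a difference of 1.84 ± 0.25 (adjusted p = 0.00048). The *Gzmb* level of Gzmf-zero NK cells lay within the range of Gzmf-high CD8 T cells, and their *Prf1* level between those of the CD8 T cell groups. *Gzmc* was higher in Gzmf-high NK cells too, at 26096, 29493 and 21706 against 2187, 2556 and 12133 CPM, and the difference of the splits was 0.86 ± 0.55 (adjusted p = 0.76, and 2.7e-06 after thinning). *Gzmd* held 1710, 3804 and 4046 against 19.4, 58.1 and 601 CPM in NK cells (0.62 ± 0.80, adjusted p = 0.94).

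*Serpinb9b* was already at a high level in NK cells with zero *Gzmf*, at 101, 75.8 and 55.2 CPM, and held 110, 81.0 and 71.7 CPM with high *Gzmf*, a difference of 3.04 ± 0.50 (adjusted p = 0.0044, and 0.0529 by DESeq2). *Cd244a* showed the same order of levels, 60.0, 57.1 and 69.9 CPM with zero and 86.6, 76.8 and 79.0 CPM with high *Gzmf* (2.00 ± 0.29, adjusted p = 0.0012, and 0.0893 with no library block). *Serpine2* held 11.6, 12.8 and 12.6 against 8.98, 13.2 and 13.6 CPM in NK cells (2.07 ± 0.46, adjusted p = 0.033, but 0.0533 without Kaede-green 1). Of 8 serpins 4 had a higher and 1 a lower difference.

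*Tcf7* held 17.3, 34.1 and 31.9 CPM in Gzmf-high and 57.8, 60.9 and 46.1 CPM in Gzmf-zero NK cells, a smaller drop than in CD8 T cells (difference -3.25 ± 0.37, adjusted p = 9.6e-05). Naive and memory genes differed in the same direction for 5 of 17. *Tnfsf8* held 23.1, 42.6 and 13.7 against 12.7, 10.0 and 15.7 CPM in NK cells (-3.57 ± 0.53, adjusted p = 0.0021). *Xcl1* differed by -1.86 ± 0.33 (adjusted p = 0.0061). Of the 28 glycolysis and hypoxia genes and of the 21 interferon-stimulated genes, 0 passed the test of a difference in edgeR. Over all genes 0.851% passed, so a count of 0 is near that share and does not show equal splits. The list medians of the difference were 0.395 and -0.231, beside 0.05 over all genes. For *Ldha* the difference was 0.04 ± 0.21 (adjusted p = 1). *Ccl5* held 219, 746 and 140 against 6653, 5496 and 462 CPM in NK cells (0.70 ± 0.51, adjusted p = 0.82). B cells held 679, 900 and 209 CPM of *Ccl5*, above the Gzmf-high NK sum of each library, but were shallower. The 7, 13 and 180 Gzmf-high NK cells held 38, 175 and 676 UMIs of *Ccl5*. The 210, 110 and 8 B cells held 681, 685 and 18, fewer per cell.

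**Figure D5:**
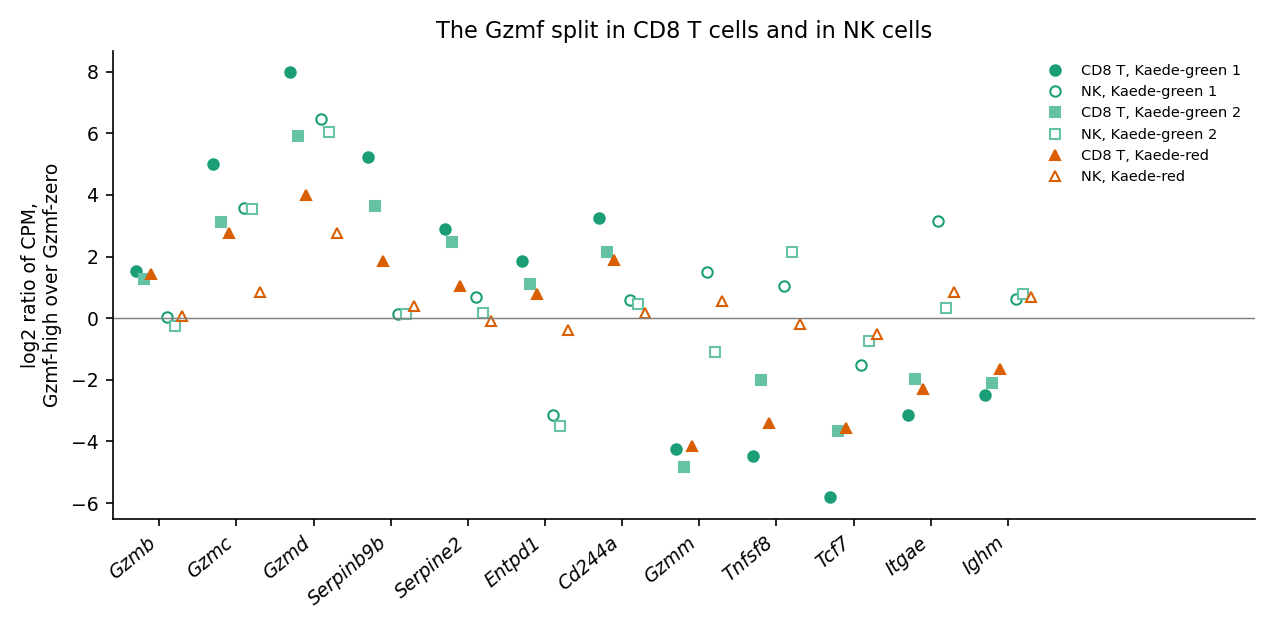
Log2 ratio of CPM, Gzmf-high over Gzmf-zero, with 0.5 UMIs added to each sum (vertical axis), for 12 genes in CD8 T cells (filled) and NK cells (open) of each library. *Gzmb* and *Serpinb9b* lie above 0 in CD8 T cells and near 0 in NK cells (differences 1.42 and 3.04), and the open points of the Kaede-green libraries rest on 7 and 13 Gzmf-high NK cells.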

How the data were processed

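The deposited values are raw counts of UMIs for each gene in each cell barcode, made by the authors from 10x 3' libraries aligned to mm10 with Cell Ranger (6.1.2 per the labels, 6.0.1 per the file headers); these counts were used as deposited. Leukocytes had been sorted as live CD45+ TER119- cells without CD11b+ NK1.1- myeloid cells. Each library's file was matched to its group by its labels. Members, gene lists and tests were chosen with earlier results of these data known. UMIs were summed per library and *Gzmf* group over cells, which are not replicates, and the sums tested in edgeR 4.0.16 (R 4.3.3; TMM factors, filterByExpr, quasi-likelihood test, library as block, Benjamini-Hochberg threshold 0.05). Both sums of a library come from the same cells' suspension, so the pairing is given by construction. SE is the log2 fold change over the square root of F. *Gzmf* and the 8 other genes of the rule were left out of the results, and *Pdcd1* and *Havcr2* too where they chose cells. Named genes were list members with the largest called changes, defining members in any case, and the 10 largest rises and falls (5 in the second comparison) at 20 CPM or more with no cell holding over 20% of the UMIs. Not every gene this rule selects is reported here. Doublets were not removed in the reported values; alternatives left out cells with other lineages' markers or Scrublet scores in the top 6%. Alternatives included DESeq2 1.42.0 and thinning to 5000 UMIs. The fits were tested on simulated data with known changes. Cells were selected in Python 3.11.15 with numpy 2.4.6. Of 32285 genes, 32158 (99.6%) were found in GENCODE (GRCm38). The p-values measure the spread of the within-library differences over 3 libraries, as edgeR moderates it with the spread of other genes. KG+ and KR+ libraries may hold cells of the same tumors, so the 3 libraries may not be independent sets of mice.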

Additional observations from a re-analysis of the deposited data

Results flagged for a closer look

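The genes below stood out because the *Gzmf* split in CD8 T cells and the same split in NK cells differed by the test of the difference itself (edgeR, adjusted p in each sentence, log2 fold change in CD8 T cells minus that in NK cells). They are the 5 highest and 5 lowest among list genes past the threshold. All of them rest on Gzmf-high NK sums of 7, 13 and 180 cells. In the Kaede-green sums a count of 0 allows up to 17.3 and 12.8 CPM, so values of about that size rest on few UMIs.

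The difference was 3.04 for *Serpinb9b* (adjusted p = 0.0044), 2.0 for *Cd244a* (adjusted p = 0.0012) and 2.07 for *Serpine2* (adjusted p = 0.033). *Il1r2* differed by 8.83 (adjusted p = 0.022, and 0.327 after thinning), but the 3 Gzmf-high NK sums held 0 UMIs, so that value depends on the prior count and is no estimate of size. *Entpd1* differed by 2.05 (adjusted p = 0.035, and 0.144 after thinning), with 0, 0 and 6.43 CPM in Gzmf-high against 25.2, 24.1 and 8.49 CPM in Gzmf-zero NK cells.

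On the lower side, *Gzmm* differed by -5.13 (adjusted p = 0.00016, and 0.169 without Kaede-red), with 11.6, 0 and 7.05 against 5.03, 4.50 and 4.81 CPM in NK cells. *Tnfsf8* differed by -3.57 (adjusted p = 0.0021) and *Tcf7* by -3.25 (adjusted p = 9.6e-05). *Itgae* differed by -3.23 (adjusted p = 0.0076), with 5.78, 0 and 3.73 against 0.929, 1.65 and 2.08 CPM in NK cells, and the call was lost after thinning (-0.66, adjusted p = 0.985) and without Kaede-red (adjusted p = 0.675). *Ighm*, the constant region of immunoglobulin M, differed by -2.67 (adjusted p = 5.3e-06), with 133, 145 and 223 against 88.9, 86.2 and 139 CPM in NK cells and 7.5, 8.79 and 7.22 against 43.5, 38.9 and 22.6 CPM in CD8 T cells.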

How the results depend on the processing

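For Gzmf-high against Gzmf-zero CD8 T cells, the 1133 higher and 1201 lower genes became 621 and 768 after thinning, 227 and 264 when the groups were also set on the thinned counts, with at least 1 UMI of *Gzmf* in place of 3 (111, 347 and 1207 Gzmf-high cells), and 413 and 497 with the threshold at 1 UMI of *Gzmf*. The higher genes became 655 within the depth range of the Gzmf-high cells and 742 by DESeq2. Leaving out 1 library gave 332 to 1324 higher and 532 to 1540 lower genes, the lowest without Kaede-green 2. Among *Pdcd1*-positive *Havcr2*-positive cells, 287 and 432 became 147 and 227 after thinning, 157 and 251 within the depth range, 134 and 214 by DESeq2, 479 and 676 with no filter on low counts, and 84 to 543 and 164 to 656 without 1 library. For the difference between CD8 T and NK cells, 57 and 42 became 144 and 103 with no filter, 26 lower genes after thinning, and 45 to 107 and 41 to 75 without 1 library. With no replicate block the counts were 951 and 1123, 67 and 183, and 2 and 7 for these comparisons; the pairing of the sums is given by the library. The cause of these moves was not tested.

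Shares of CD8 T cells were 8.01%, 22.8% and 58.7% with at least 1 UMI of *Gzmf*, or 6.76%, 15.5% and 44.8% so thinned. With at least 10 UMIs they were 4.97% in Kaede-green 2 and 23% in Kaede-red, and among cells with 0 UMIs of *Mki67* and *Top2a* 5.64% and 26.8%. The named genes gave 133 values, each of a gene in 1 comparison. Of these, that of *Serpinb1a* turned from -1.72 to 0.079 (adjusted p = 0.942) with groups set on thinned counts at 1 UMI or more. Depth and threshold changed together there, and the part of each was not tested. In all other cases the direction held. Counted over all pairs of a value and an alternative, 142 lost and 4 gained the call, and 2000 kept their side. The losses were uneven. With groups set on thinned counts 33 values lost the call and 69 kept their side, and with at least 1 UMI of *Gzmf* 22 lost it and 82 kept it. Thinning alone lost 7 and kept 122. Leaving out cells with a UMI of another lineage's marker or with a high Scrublet score changed 0 of these calls in the first comparison. The 8 B cells of Kaede-red and the 7 and 13 Gzmf-high NK cells of the Kaede-green libraries limit the background shares and the comparison with NK cells.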
